A study of Mus musculus with 6 samples.

Results

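Secretagogin (Scgn) and 9 other genes for calcium-binding proteins with EF-hands were followed across 6 Affymetrix mouse arrays, 3 of intestinal CCK-EGFP cells and 3 of non-EGFP intestinal cells. The genes are Scgn, Ncald, Hpca, Hpcal1, Hpcal4, Vsnl1, S100g, Calb1, Calb2 and Pvalb, and these 10 of the 18193 genes measured hold 17 of the 45101 probe sets. The members were chosen by the measured values, since the level of Scgn in CCK-EGFP cells exceeded that in non-EGFP cells by one of the largest margins on the arrays. The same comparison therefore describes the members and does not test them. For each gene the probe set brightest on average across the arrays stands for it, and 6 of the 10 genes have a single probe set.

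CCK-EGFP cells were sorted by fluorescence from the enzyme-dissociated intestine of adult transgenic Swiss Webster mice, in which enhanced green fluorescent protein marks cells that express cholecystokinin (Cck), a hormone of enteroendocrine cells. The non-EGFP cells were GFP-negative intestinal cells of mice with the same CCK-EGFP genotype, taken in equal number. Both groups hold 3 samples, and the labels do not say whether these came from separate mice or from which stretch of the intestine. Any statement on spread therefore covers these samples, which may be technical replicates, and 3 arrays a group limit the precision.

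The EF-hand is a helix-loop-helix fold that binds a calcium ion in its loop. Proteins with EF-hands act as sensors, which change shape and partners when calcium rises, or as buffers, which take calcium up and move it through the cytosol. Secretagogin is a sensor of endocrine cells and neurons that binds the exocytotic protein Snap25. Neurocalcin delta (Ncald), hippocalcin (Hpca), the hippocalcin-like proteins (Hpcal1 and Hpcal4) and visinin-like 1 (Vsnl1) are neuronal calcium sensors, several of which expose a myristoyl group and move to membranes on binding calcium. Calbindin (Calb1), calretinin (Calb2) and parvalbumin (Pvalb) are buffers best known from neurons and, for parvalbumin, fast muscle. S100g encodes the small vitamin D-dependent calbindin that carries calcium through absorptive enterocytes.

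Values are log2 RMA intensities, on which 1 unit is a doubling. The background level was 4.599, the 95th percentile of the means of 71 olfactory and vomeronasal receptor genes. The median of an array was 5.66 to 5.72 for CCK-EGFP cells, against 5.37 to 5.55 for non-EGFP cells. The sort labels were checked against marker lists. All 9 enteroendocrine markers were higher in CCK-EGFP cells (limma, Benjamini-Hochberg adjusted p under 0.05), Cck itself by 4.53 (SE 0.25, adjusted p = 0.000192). Their mean log2 level was 12.56 to 12.89 on the CCK-EGFP arrays, against 7.76 to 8.07 on the non-EGFP arrays. Of the other lists, 9 enterocyte markers averaged 12.70 to 13.37 in CCK-EGFP cells, against 13.65 to 13.71 in non-EGFP cells, and 9 immune cell markers averaged 8.42 to 10.56 and 9.53 to 10.61. Transcripts of both cell types were thus measured in both sorts. Of 10 enteric neuron markers 1 was higher (Elavl3) and 0 were lower, or 2 and 0 with the replicate number as a block. Their list means were 4.63 to 5.24 in CCK-EGFP cells, against 4.06 to 4.58 in non-EGFP cells. The probe sets of Elavl3 differed by -0.61 to 4.55 log2 units. Of 5 tuft cell markers 3 were higher and 0 lower (2 and 0 with the block), with list means of 7.34 to 8.39 and 5.66 to 6.33. Among all genes 14.0% were higher and 10.2% lower.

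Among the members, Scgn, Ncald, Hpca and Vsnl1 read higher on all 3 CCK-EGFP arrays than on any non-EGFP array, and S100g, Calb2 and Pvalb read lower on all 3. Hpcal4, Hpcal1 and Calb1 overlapped between the groups. All 3 CCK-EGFP arrays lay above all 3 non-EGFP arrays for 21.8% of all genes and below them for 28.1%. In the fit across all genes 2 of the 10 members, Scgn and Ncald, were past an adjusted p of 0.05 as higher and 0 as lower, against 14.0% of all genes higher, 10.2% lower and 24.1% in either direction. With each probe set tested alone, 4 of the 17 were higher, against 8.84% of all probe sets. As Scgn's difference led to the choice of the set, nothing is read from these counts. The median log2 difference, CCK-EGFP minus non-EGFP, was 0.58 over the members and -0.17 over all genes. Both group means of Calb1, Calb2, Pvalb and Hpcal4 were below the background level, so differences of these 4 genes are differences between signals that cannot be told from background. In a pool of sorted cells, fewer cells of a type and less RNA per cell cannot be told apart.

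**Figure D1:**
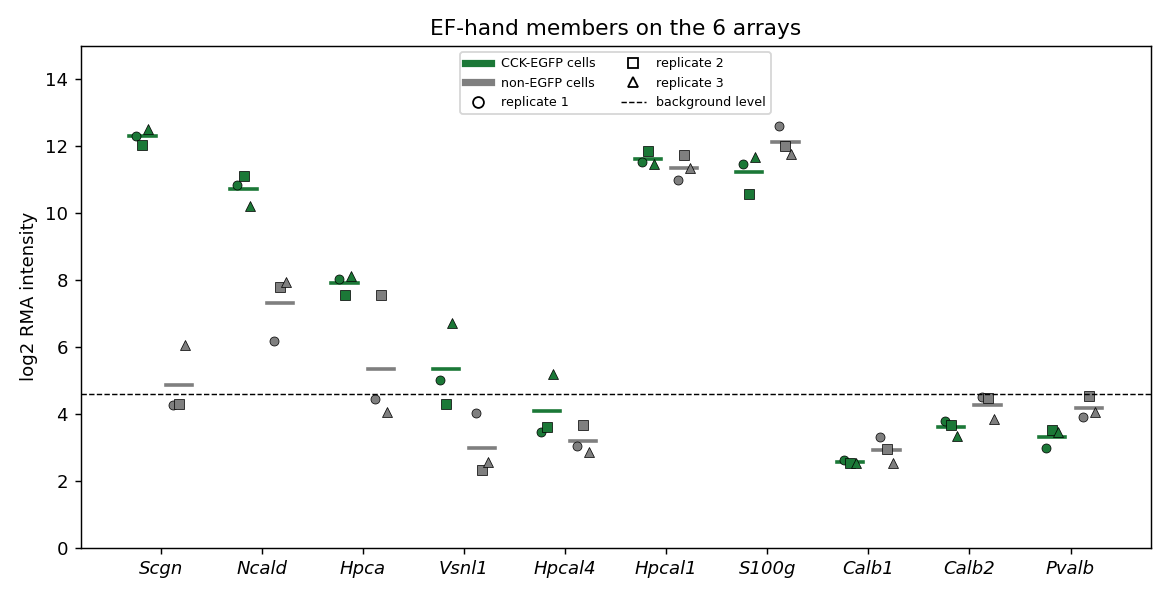
Log2 RMA intensity of each EF-hand member on every array, CCK-EGFP cells in green to the left and non-EGFP cells in grey to the right, with a bar at the mean of 3 arrays and a dashed line at the background level of 4.599. Scgn, Ncald, Hpca and Vsnl1 separate upward in CCK-EGFP cells, Hpcal1 and S100g are well above background in both groups, and Calb1, Calb2 and Pvalb stay below it.

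**Figure D2:**
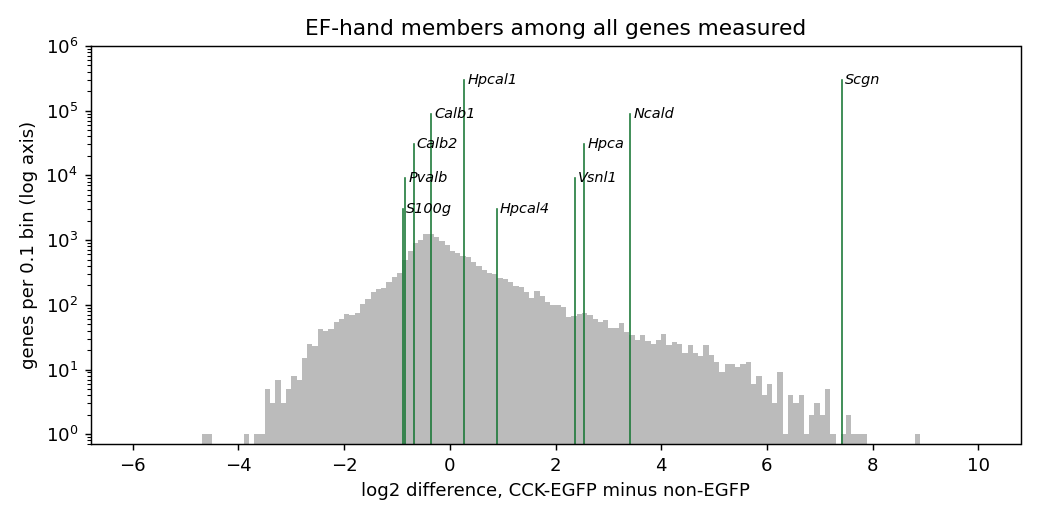
Histogram of the log2 difference, CCK-EGFP minus non-EGFP, of all 18193 genes on a log count axis, with a green line at each member. Scgn stands at 7.42 in the sparse right tail, with 6 genes beyond it, while 6 members lie between -0.88 and 0.89.

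The 250 bases before the annotated start are shown for 3 members with contrasting patterns, Scgn (much higher in CCK-EGFP cells), Hpcal1 (overlapping between the groups) and S100g (lower in CCK-EGFP cells). They come from RefSeq on GRCm38.p6, 5′ to 3′ on the strand of the gene, at chr13:23991215-23991464 (minus strand), chr12:17690559-17690808 (plus strand) and chrX:162964600-162964849 (minus strand). Capitals mark the E-box CANNTG, bound by basic helix-loop-helix factors, the GC box GGGCGG and the homeodomain core TAAT, each searched on both strands with overlapping matches counted.
Scgn: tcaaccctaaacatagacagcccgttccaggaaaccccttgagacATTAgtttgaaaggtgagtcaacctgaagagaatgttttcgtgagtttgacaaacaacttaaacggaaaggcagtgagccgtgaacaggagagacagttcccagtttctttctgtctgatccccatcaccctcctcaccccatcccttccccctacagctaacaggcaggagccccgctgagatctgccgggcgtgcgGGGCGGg
Hpcal1: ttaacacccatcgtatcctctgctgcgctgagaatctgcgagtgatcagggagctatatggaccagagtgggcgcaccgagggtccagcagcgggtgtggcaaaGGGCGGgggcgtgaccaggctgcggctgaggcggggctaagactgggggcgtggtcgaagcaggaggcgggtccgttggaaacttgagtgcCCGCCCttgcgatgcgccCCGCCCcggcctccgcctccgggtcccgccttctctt
S100g: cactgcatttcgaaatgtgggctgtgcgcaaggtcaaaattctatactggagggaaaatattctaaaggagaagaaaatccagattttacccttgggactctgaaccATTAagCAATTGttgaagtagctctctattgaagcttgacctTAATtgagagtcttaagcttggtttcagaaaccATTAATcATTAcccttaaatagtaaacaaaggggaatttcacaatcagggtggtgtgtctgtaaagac
GC content was 53.2% for Scgn, 66.8% for Hpcal1 and 38.4% for S100g, against a median of 52.4% over 32841 promoters of the same length. The Scgn window held 1 GC box, 1 TAAT core and 0 E-boxes. The Hpcal1 window held 3 GC boxes and neither of the other motifs, and the S100g window held 5 TAAT cores, 1 E-box and 0 GC boxes. Of all 32841 promoters 66.2% held an E-box, 32.7% a GC box and 54.9% a TAAT core. A match is a match of letters only and is not evidence of binding. Of the 10 members 7 had a promoter in the table, and Ncald, Calb1 and Calb2 are named only.

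Scgn showed the largest difference of the set. Its 1 probe set read 12.32, 12.05 and 12.51 on the CCK-EGFP arrays, against 4.26, 4.30 and 6.06 on the non-EGFP arrays. The lowest CCK-EGFP array lay far above the highest non-EGFP array. The means were 12.29 ± 0.23 in CCK-EGFP cells, against 4.87 ± 1.03 in non-EGFP cells (SD, n = 3 each), a log2 difference of 7.42 (SE 0.50), or 171-fold, and 6 genes had a larger one. Taken by replicate number, the differences were 8.05, 7.76 and 6.45. Non-EGFP replicates 1 and 2 were below the background level, so the non-EGFP mean passed it only through replicate 3. Without that array the non-EGFP mean was 4.28.

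Scgn on non-EGFP replicate 3 was read beside the enteroendocrine markers. Of the 9 markers 5 were highest on that array among the non-EGFP arrays and 3 were lowest. The share of all genes highest on it was not computed. On non-EGFP replicates 1 and 2 the array median was 5.37 and 5.37, against 5.55 on non-EGFP replicate 3. The granule protein Scg2 read 6.12 there against 5.07 and 5.18 on non-EGFP replicates 1 and 2, and the transcription factor Pax6 read 6.44 against 4.59 and 3.92. The granin Scg3 went the other way, at 7.21 against 7.54 and 8.03, as did the prohormone convertase Pcsk1, at 6.47 against 8.11 and 8.498. The mean of the 9 markers was 7.92, 7.76 and 8.07 on non-EGFP replicates 1, 2 and 3. The part of other endocrine cells in the Scgn signal of that array was not tested.

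The genes most like Scgn were those whose log2 profile over the 6 arrays, taken around the gene's own mean, differed least from that of Scgn by root mean square. Among 12796 genes with a CCK-EGFP mean above background these were Sphkap at 0.22, Scg2 at 0.30, Cadps at 0.43, Klhl13 at 0.49, Fxyd6 at 0.56 and Tekt2 at 0.56 log2 units. Sphkap encodes an anchoring protein of protein kinase A, and Cadps primes dense-core vesicles for release. Fxyd6 regulates the sodium pump, and Tekt2 is a tektin of cilia and flagella. The CCK-EGFP minus non-EGFP difference was 7.63 for Sphkap and 7.56 for Scg2. All non-EGFP arrays were below background for the other 4 genes, which were at least 58.4-fold (Cadps), 60.7-fold (Klhl13), 72.9-fold (Fxyd6) and 57.2-fold (Tekt2) higher in CCK-EGFP cells, against the background level. With the mean of all probe sets the difference was 4.37 for Sphkap and 5.67 for Klhl13. The genes were picked for this profile, so its shape is a description. All 6 arrays split by group, so likeness over them mostly reflects the size of the group difference. Of the members with a CCK-EGFP mean above background, Ncald came next, at 2.11 log2 units and rank 509.

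**Figure D3:**
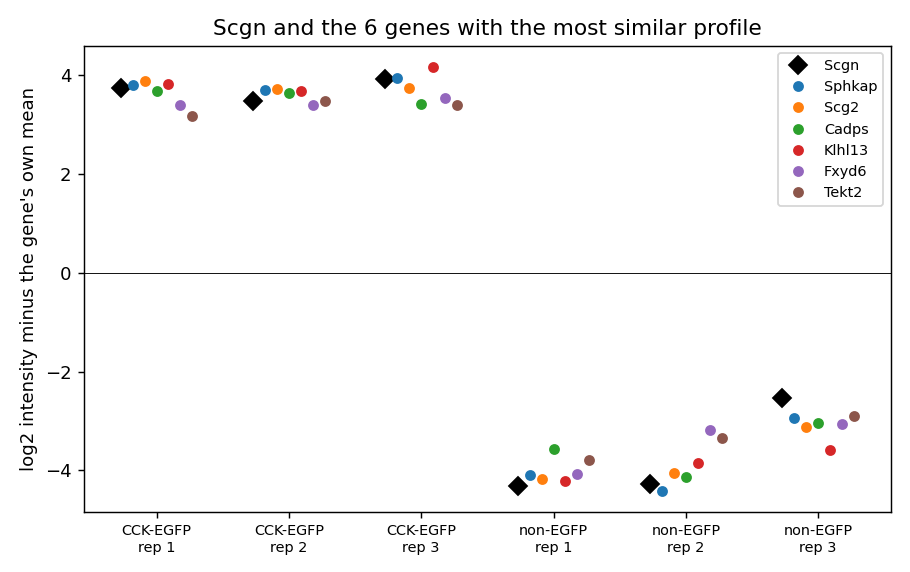
Log2 intensity minus the gene's own mean over the 6 arrays (y axis) on each array (x axis) for Scgn, black diamonds, and the 6 genes with the closest profile, coloured circles. All 7 profiles lie above 3 on the CCK-EGFP arrays and below -2 on the non-EGFP arrays, where Cadps, Klhl13, Fxyd6 and Tekt2 are below the background level.

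Ncald was the neuronal calcium sensor with the clearest separation. Its leading probe set read 10.83, 11.12 and 10.22 on the CCK-EGFP arrays, against 6.18, 7.79 and 7.94 on the non-EGFP arrays. Every non-EGFP array was above background, so this sensor was measured in both sorts. The mean was 10.72 ± 0.46 in CCK-EGFP cells, against 7.31 ± 0.98 in non-EGFP cells (SD, n = 3 each), a log2 difference of 3.42 (SE 0.51) or 10.7-fold. The second probe set read 9.98, 10.37 and 9.10 in CCK-EGFP cells, against 7.80, 6.73 and 7.90 in non-EGFP cells, a difference of 2.34 (SE 0.45). The third read 9.30, 8.47 and 8.93 in CCK-EGFP cells, against 4.35, 4.92 and 6.01 in non-EGFP cells, a difference of 3.81 (SE 0.45). All 3 probe sets kept the groups apart, with gaps of 2.27, 1.20 and 2.47 log2 units between the nearest arrays.

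Hpca, the hippocalcin gene, depended on a single non-EGFP array. It read 8.02, 7.57 and 8.11 on the CCK-EGFP arrays, against 4.44, 7.55 and 4.06 on the non-EGFP arrays. Non-EGFP replicate 2 thus lay 0.02 below the lowest CCK-EGFP array, while the other non-EGFP arrays were below background. The means were 7.90 ± 0.29 in CCK-EGFP cells, against 5.35 ± 1.91 in non-EGFP cells (SD, n = 3 each), with a log2 difference of 2.55 (SE 0.89) over all arrays. Without non-EGFP replicate 2 the non-EGFP mean was 4.25, below background, and Hpca was at least 9.84-fold higher in CCK-EGFP cells, against the background level. Of the 9 enteroendocrine markers 3 were highest on non-EGFP replicate 2 among the non-EGFP arrays and 4 were lowest, and the part of endocrine cells in the Hpca signal of that array was not tested. The other probe set of Hpca read 3.94, 4.54 and 4.78 in CCK-EGFP cells, against 4.17, 4.17 and 3.93 in non-EGFP cells. Only CCK-EGFP replicate 3 was above background on it, and the difference was 0.33 (SE 0.27).

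Vsnl1, the visinin-like sensor, was low and uneven. It read 5.003, 4.28 and 6.72 on the CCK-EGFP arrays, against 4.02, 2.31 and 2.57 on the non-EGFP arrays. All non-EGFP arrays and CCK-EGFP replicate 2 were below background, and the nearest arrays of the groups lay 0.26 apart. The mean of 5.33 ± 1.25 in CCK-EGFP cells was at least 1.66-fold above the background level, or 1.03-fold without CCK-EGFP replicate 3, and the non-EGFP mean was 2.97 ± 0.92 (SD, n = 3 each). The fitted difference was 2.37 (SE 0.72), or 1.67 without CCK-EGFP replicate 3. Its other probe set read 3.86, 3.55 and 5.10 in CCK-EGFP cells, against 3.47, 3.57 and 3.05 in non-EGFP cells, again highest on CCK-EGFP replicate 3.

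Hpcal4 had the same array on top. It read 3.46, 3.61 and 5.18 on the CCK-EGFP arrays, against 3.05, 3.67 and 2.86 on the non-EGFP arrays, a difference of 0.89 (SE 0.50). CCK-EGFP replicate 3 was the only array above background, and the groups overlapped. Of the 10 members 5 were highest on replicate 3 among the CCK-EGFP arrays. The share of all genes highest on that array was not computed, so nothing is read from this count. Its array median was the highest of its group, at 5.72 against 5.67 and 5.66 on CCK-EGFP replicates 1 and 2. CCK-EGFP replicate 3 also had the highest immune marker mean of its group, 10.56 against 8.42 and 9.27 on CCK-EGFP replicates 1 and 2. Its enterocyte marker mean was 13.37 against 12.71 and 12.70, while its enteric neuron marker mean was 4.63 against 5.06 and 5.24. The part of these cells in the Vsnl1 and Hpcal4 signals was not tested.

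Hpcal1, a close relative of hippocalcin, was well above background on every array. It read 11.54, 11.86 and 11.47 on the CCK-EGFP arrays, against 10.98, 11.74 and 11.35 on the non-EGFP arrays. The groups overlapped, with means of 11.62 ± 0.21 in CCK-EGFP cells, against 11.36 ± 0.38 in non-EGFP cells (SD, n = 3 each) and a difference of 0.27 (SE 0.25), or 0.01 after centring every array at its median. The 5 neuronal calcium sensors thus ran from a difference of 0.27 for Hpcal1 to 3.42 for Ncald.

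S100g, the calbindin of calcium-absorbing enterocytes, was the only buffer of the set above background, and it was so on every array. It read 11.47, 10.57 and 11.69 on the CCK-EGFP arrays, against 12.61, 11.996 and 11.78 on the non-EGFP arrays. The groups did not overlap, but CCK-EGFP replicate 3 and non-EGFP replicate 3 were only 0.09 apart. The means were 11.24 ± 0.59 in CCK-EGFP cells, against 12.13 ± 0.43 in non-EGFP cells (SD, n = 3 each), a difference of -0.88 (SE 0.37), or 0.542 times the non-EGFP level. Without each array in turn the difference ran from -1.11 to -0.55. The mean of the enterocyte markers was also lower in CCK-EGFP cells, at 12.71, 12.70 and 13.37 on CCK-EGFP replicates 1, 2 and 3. On non-EGFP replicates 1, 2 and 3 it was 13.71, 13.69 and 13.65. Between CCK-EGFP replicates 1 and 2, and among the non-EGFP arrays, S100g varied more than this mean. The mean averages 9 genes, so its spread is not like that of 1 gene, and nothing is read from this. Among these genes, Lct read 11.11 and 12.14 on CCK-EGFP replicates 1 and 2, while Fabp1 read 13.65 and 13.56. The part of carried-over enterocytes in the S100g signal of CCK-EGFP cells was not tested.

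The neuronal buffers were not above background. The 4 probe sets of Calb1 read between 2.09 and 3.30 over all 6 arrays, and their differences ran from -0.36 to 0.00. Calb2 read 3.78, 3.67 and 3.33 on the CCK-EGFP arrays, against 4.50, 4.48 and 3.85 on the non-EGFP arrays. Pvalb read 2.98, 3.52 and 3.46 on the CCK-EGFP arrays, against 3.92, 4.53 and 4.05 on the non-EGFP arrays. Every array was below the background level for these 3 genes. The differences of -0.69 (SE 0.25) for Calb2 and -0.84 (SE 0.25) for Pvalb separate the groups by 0.08 and 0.39 log2 units between the nearest arrays. With the replicate number as a block, Pvalb was past the threshold as lower, and the count of members past it was then 2 higher and 1 lower.

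**Figure D4:**
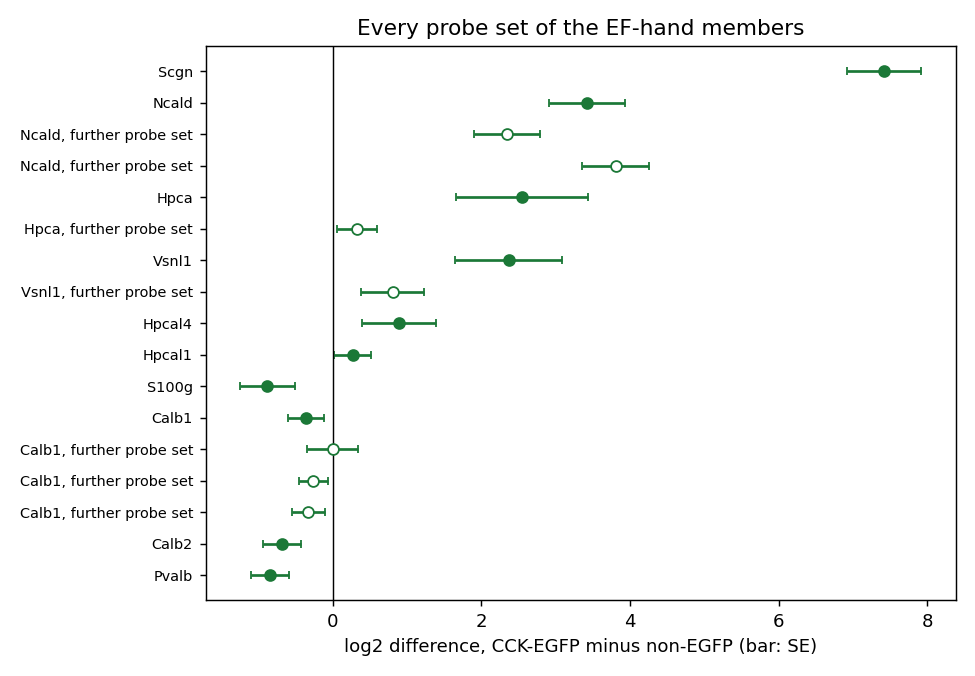
Log2 difference, CCK-EGFP minus non-EGFP, of all 17 probe sets of the EF-hand members with the standard error as a bar, filled for the probe set that represents the gene and open for the others. The 3 probe sets of Ncald lie between 2.34 and 3.81, those of Hpca at 2.55 and 0.33, and the 4 of Calb1 between -0.36 and 0.00.

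Other EF-hand families were compared in the same fit, in which 14.0% of all genes were higher and 10.2% lower. The share of all genes whose call held when any array was left out was not computed. Among 8 further neuronal calcium sensor genes 0 were higher and 0 lower, with a median difference of -0.43, and 6 had both means below background. Kcnip2, a channel-interacting sensor, stood at 3.95 ± 0.34 in CCK-EGFP cells, against 4.68 ± 0.27 in non-EGFP cells (limma adjusted p = 0.0812). Of 19 calmodulin-like, centrin, troponin C, CIB and CHP genes 2 were higher and 1 lower, or 1 and 2 under the replicate block, and 1 in each direction held when any array was left out. These were Tnnc1, the troponin C of slow and cardiac muscle, at 9.91, 10.16 and 8.89 in CCK-EGFP cells, against 5.77, 4.76 and 3.69 in non-EGFP cells (difference 4.92, limma adjusted p = 0.00272), and Chp2, a calcineurin B homologue, with a difference of -1.87 (limma adjusted p = 0.0052). Calml4, a calmodulin-like protein of the brush border, did not pass (13.35 ± 0.03 and 13.49 ± 0.06, adjusted p = 0.558). Of 12 other S100 genes 0 were higher and 1 lower, and of 7 penta-EF-hand genes 0 were higher and 2 lower, none of which held when any array was left out. With the block the S100 genes counted 1 higher and 1 lower, and the penta-EF-hand genes 0 and 1.

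EF-hand genes of the secretory pathway moved in both directions. Of 10 genes of the endoplasmic reticulum and Golgi 4 were higher and 3 lower (median 0.52), against 14.0% and 10.2% of all genes. Of these calls 3 higher and 0 lower held when any array was left out. The reticulocalbin Rcn1 was higher by 3.67, its relative Rcn2 by 2.60, and Nucb2, the precursor of nesfatin, by 2.29 (limma adjusted p = 0.000961, 0.00561 and 0.00247). The other probe sets of Rcn1 and Rcn2 went the opposite way, at -0.47 and -0.52. With the replicate number as a block the count was 4 higher and 1 lower. Of 11 mitochondrial EF-hand genes 1 was higher and 2 lower, and 1 in each direction held when any array was left out. The higher gene was Micu3, a regulator of the mitochondrial calcium uniporter, with a difference of 3.57 (limma adjusted p = 0.00266), and its other probe set differed by 0.03. The 2 lower genes were Slc25a13 at -2.40 and Letm1 at -1.38 (limma adjusted p = 0.0168 and 0.01255). The probe sets of Letm1 differed by -1.38 to 0.39.

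**Figure D5:**
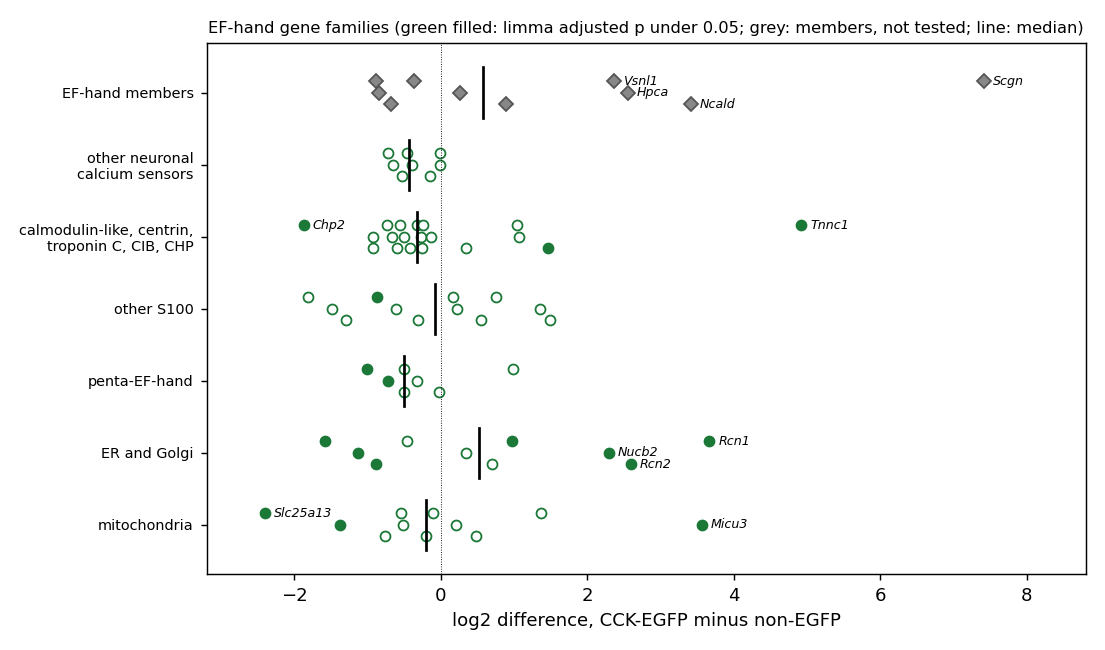
Log2 difference, CCK-EGFP minus non-EGFP, of each measured gene of 7 EF-hand groups, with a line at the median of each group. Grey diamonds are the members, which are described without a test, and filled green circles are genes past a limma adjusted p of 0.05. Scgn at 7.42 and Tnnc1 at 4.92 lie farthest to the right.

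Of the proteins reported to bind secretagogin, Snap25 was measured at 12.97, 12.91 and 12.09 in CCK-EGFP cells, against 8.38, 7.69 and 5.90 in non-EGFP cells (difference 5.34, limma adjusted p = 0.00287). Its lowest non-EGFP value was on replicate 3, the array on which Scgn was highest of that group. The vesicle protein Doc2a (0.19), the kinesin heavy chain Kif5b (0.42) and the coat regulator Arfgap2 (0.00) did not pass the test (limma adjusted p = 0.559, 0.296 and 0.99). Of the 4 genes 1 was higher and 0 lower, against 14.0% and 10.2% of all genes.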

How the data were processed

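Total RNA of the sorted cells was extracted with a Qiagen kit, amplified from picogram amounts and labelled with biotin, per the labels' protocols. The authors deposited 1 table of 45101 probe sets whose values were taken as log2 intensities from RMA, per the submitters' processing notes. That method removes background, equalises the quantiles of the arrays and sums up each probe set. The RMA version is not given in the sources used here. RMA gives no detection call. The deposited values run from 1.47 to 14.8, and quantile normalization can shrink a broad shift between groups. Even so, the array medians differed by group, at 5.66 to 5.72 for CCK-EGFP cells and 5.37 to 5.55 for non-EGFP cells. This offset remains in the values used, except where arrays were centred or normalized again, and it bears on small differences.

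Names came from the annotation of the array platform. Of them 34945 had 1 gene symbol, 932 had several and 9160 were unlisted, and 64 were controls. Groups were compared over 18193 genes with limma 3.58.1 in R 4.3.3 (lmFit, eBayes, two-sided, Benjamini-Hochberg, threshold 0.05), a script first tested on simulated data. Tables and figures used Python 3.11.15. Counting and promoter searches are descriptions.

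The members, lists and tests were chosen with earlier results of these data known. Named genes are all members, the 6 genes most like Scgn, and from each other list genes past the threshold by size (up to 6) or not past it by mean level (up to 3). Outside this rule Trpv6 was named after its values were seen, and Cldn2 to show a difference in the opposite direction. Of genes past the threshold, the text names only those whose calls held when any array was left out. The 2 lower mitochondrial EF-hand genes are an exception, as the call of only 1 of them held. Not every gene whose call held is named. Alternatives were a replicate block, a filter on dim genes, trend and robust eBayes, centring, a second quantile normalization, other uses of probe sets and leaving out each array. Across genes, which are not independent replicates, deviations from group means correlated at 0.159 to 0.27 between arrays of the same number and at -0.245 to -0.0109 between other numbers. The labels do not say what a number marks, and by these values the numbers were read as pairing the arrays. The values given come from the fit without the block, and the blocked value stands beside a result where it moved a call or a count.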

Additional observations from a re-analysis of the deposited data

How the results depend on the processing

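In CCK-EGFP cells 2540 genes were higher and 1851 lower. Centring every array at its median gave 2101 and 3605, so that higher genes made up 36.8% of calls against 57.9% as deposited, and the median difference of all genes moved by -0.25. Each probe set tested alone gave 3981 higher and 3285 lower of 45037, and 4 higher of the 17 member probe sets. Without each array in turn the counts were 1365 to 2486 higher and 505 to 1962 lower, and among the members 2 to 3 higher and 0 to 1 lower. The smaller counts came without CCK-EGFP replicate 2 or 1 (1468 higher and 666 lower), and without non-EGFP replicate 2 or 1 the lower count was 880 or 1021. Under the replicate block 2340 genes were higher and 1534 lower. The members counted 1 lower, in place of 0, with the block, with trend and robust eBayes, with centring and with the mean of all probe sets. Every alternative kept Scgn between 7.12 and 8.01. Ncald stayed between 2.86 and 3.74 when read by its leading probe set or by the mean of all its probe sets. The other probe sets of Ncald, each tested alone, lay outside this range, at 2.34 and 3.81. Signs turned with centring for Doc2a (-0.058), Arfgap2 (-0.25) and S100a6 (-0.0318), with the mean of all probe sets for Kif5b (-0.0654) and Arfgap2 (-0.52), and without single arrays for Arfgap2 (range -0.1366 to 0.13) and Doc2a (range -0.0113 to 0.3222), and the cause was not tested. RMA gives no detection call, so values below background limit what can be said of 4 members.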

Other observations

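Calcium handling without EF-hands was described with the same fit, in which 14.0% of all genes were higher and 10.2% lower. Of 22 pumps, exchangers, store channels and store chaperones the CCK-EGFP cells had 8 higher and 1 lower (median log2 difference 0.65), and 3 higher and 0 lower held when any array was left out. With the replicate number as a block the counts were 6 higher and 2 lower. Those 3 were Slc8a1, which exchanges sodium for calcium, at least 35.6-fold higher against the background level (limma adjusted p = 0.000104), the Golgi calcium pump Atp2c1, higher by 2.02 (limma adjusted p = 0.0031), and the inositol trisphosphate receptor Itpr3, higher by 1.795 (limma adjusted p = 0.0117). A further probe set of Slc8a1 differed by -0.41, and one of Atp2c1 by -1.01. The mean over all probe sets differed by 2.55 for Slc8a1, against 7.15 for its leading probe set, and by 0.71 for Atp2c1. Of 18 calmodulin-dependent kinase and calcineurin genes 6 were higher and 1 lower (median 0.02), and 4 higher and 1 lower held when any array was left out. With the block 5 were higher and 1 lower. The kinase subunit Camk2b read 11.28, 11.43 and 11.29 in CCK-EGFP cells, against 4.65, 5.35 and 6.34 in non-EGFP cells (difference 5.88, limma adjusted p = 0.000439). The calcineurin regulators differed in direction, with Rcan3 higher by 3.26, Rcan2 at least 3.17-fold higher against the background level, and Rcan1 lower, with a difference of -1.14 (limma adjusted p = 0.00229, 0.00942 and 0.00699). The other probe set of Rcan3 differed by 0.14, and the mean over all probe sets by 1.70 for Rcan3 and -1.75 for Rcan1. The upstream kinase Camkk2 was higher by 2.92 (limma adjusted p = 0.000331). Its 4 probe sets differed by 0.39 to 3.89, and the mean over all of them by 2.42.

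Genes of intestinal calcium absorption were set beside S100g. Of 7 measured 0 were higher and 1 lower (median -0.43), against 14.0% and 10.2% of all genes. Not all read lower as S100g did. The calcium pump Atp2b1 and the claudins Cldn2 and Cldn12 read higher on all 3 CCK-EGFP arrays than on any non-EGFP array. Their differences were 0.53, 3.05 and 0.54 (limma adjusted p = 0.114, 0.0737 and 0.0768). A further probe set of Atp2b1 differed by -0.53. The other genes of the list had lower means in CCK-EGFP cells. The vitamin D receptor Vdr stood at 12.15 ± 0.40 in CCK-EGFP cells, against 12.80 ± 0.19 in non-EGFP cells (SD, n = 3 each, limma adjusted p = 0.111). With each array centred Vdr passed the test as lower, at -0.90 (limma adjusted p = 0.0386). Its other probe set differed by -1.19. The apical calcium channel Trpv6, chosen after its values were seen, read 5.38, 4.67 and 4.64 in CCK-EGFP cells, against 7.92, 5.23 and 8.04 in non-EGFP cells (difference -2.17, limma adjusted p = 0.0822). It passed the test with each array centred, at -2.42. Without non-EGFP replicate 2 its difference was -3.08 (limma adjusted p = 0.00428), but without non-EGFP replicate 1 or 3 it was -1.74 or -1.68 (limma adjusted p = 0.194 and 0.169). It did not pass without any one CCK-EGFP array either (limma adjusted p = 0.137 to 0.1995).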
